A study of Arabidopsis thaliana with 18 samples.

Results

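AT1G64405, AT4G37380, AT1G60010 and AT5G57340 are 4 Arabidopsis loci with higher signal after auxin treatment in root protoplasts that carried an empty vector. They were chosen by locus for that response, out of 22746 probesets on the array. The annotation used here lists each as protein coding and gives no name beyond the locus tag, so it assigns no function to any of them. Each locus is represented by 1 probeset: 259735_at for AT1G64405, 253092_at for AT4G37380, 263737_at for AT1G60010 and 247903_at for AT5G57340. All 4 passed the filter on low signal and stand among the 16892 probesets tested. The response in empty vector cells chose the loci. Values of the loci that involve an empty vector array are thus given as a description, without a test. Calls by a test in empty vector cells serve only to list raised probesets. The tests of the loci compare only groups of cells carrying IAA7mII or IAA19mII. Their estimate of the spread between replicates is shared by all 18 arrays, empty vector arrays included.

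The cells came from 7-day seedlings of a Col-0 line with a GFP reporter driven by the WEREWOLF promoter (Pwer::GFP). Roots were digested for 3 h, and the protoplasts were transformed with polyethylene glycol and kept overnight. They then received 5 µM IAA (indole-3-acetic acid, the main natural auxin) or solvent alone (mock) for 3 h. Cells fluorescing in both green and red were sorted, and the RNA of the sorted cells went through the NuGEN WT-Ovation Pico amplification before hybridization to ATH1 arrays. The 6 groups of 3 arrays were cells with pBeaconRFP_IAA7mII and IAA, the same vector with mock, pBeaconRFP_IAA19mII with IAA, the same vector with mock, the empty vector pMON999_mRFP with IAA, and the empty vector with mock. All groups shared the reporter line, the digestion, the transformation and the sort. The empty vector has another backbone than both over-expression vectors, so the effect of an over-expressed protein and that of the backbone cannot be told apart in any comparison with the empty vector. The labels do not spell out "mII". Nor do they state that the 3 replicates of a group came from different cultures, and the p-values thus rest on a spread between arrays that may be technical.

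As background, auxin binds a co-receptor formed by a TIR1/AFB F-box protein and an Aux/IAA repressor, and the repressor is then degraded. Auxin response factors (ARFs) released from the repressor activate early auxin genes, among them those of the Aux/IAA, GH3 and SAUR families. IAA7 and IAA19 are Aux/IAA proteins. Mutations in their degron, within domain II, stabilize such proteins, and stabilized Aux/IAA proteins repress auxin responses in intact plants. The WEREWOLF promoter is active in the epidermis and lateral root cap of the root tip.

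Values are MAS5 signals, a linear measure of hybridization, which the authors had scaled to nearly equal trimmed means (246.5 to 247.6 over the 18 arrays). Pairs of arrays within a group correlated at Pearson r of 0.918 to 0.973 across probesets. The median standard deviation of log2(signal + 16) was smallest in empty vector arrays, at 0.262 with mock, and largest in IAA7mII arrays with IAA, at 0.438. Of 21 listed markers of epidermis and lateral root cap, only TRY, EXPA7 and EXPA18 have a named probeset here, and WEREWOLF itself is not among them. Their summed signal was 35.1 to 89.7 in IAA7mII cells with IAA, 45.3 to 63.1 in IAA7mII cells with mock, 168.9 to 203.1 in IAA19mII cells with IAA, 109.9 to 253.2 in IAA19mII cells with mock, 41.8 to 273.4 in empty vector cells with IAA and 61.7 to 72.0 in empty vector cells with mock. With so few markers, the identity of the sorted cells is given by the labels and was not established from these arrays. In any of these bulk samples, fewer cells of a type and less RNA per cell cannot be told apart.

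In empty vector cells the signals of the 4 loci were 6.03 to 7.65 times as high with IAA as with mock, on the signal + 16 scale. AT1G64405 had signals of 194.5, 329 and 243 with IAA, against 24.8, 28.0 and 26.0 with mock. That is a log2 difference of 2.66 ± 0.40 (SE). Its mock arrays lay close together, and its median position among all probesets was at percentile 73.3 with IAA and 42.1 with mock. AT4G37380 had 979.9, 1215 and 851 with IAA, against 90.2, 118.5 and 150.0 with mock. Its log2 difference was the largest of the 4, at 2.94 ± 0.47. AT1G60010 had 1015, 892 and 1001 with IAA, against 104.7, 113.3 and 182.3 with mock, a log2 difference of 2.75 ± 0.55. AT5G57340 had 1891, 1016 and 1156 with IAA, against 273, 108 and 279 with mock, a log2 difference of 2.59 ± 0.43. Its replicate 1 stood above the other IAA arrays and its replicate 2 below the other mock arrays. For all 4 loci every IAA array lay above every mock array, a separation that 8.81% of all tested probesets show in the same direction, and which the choice of the loci fixes. Limma called 26 single-gene probesets higher with IAA in empty vector cells. Among them the 4 loci held ranks 5 (AT4G37380), 6 (AT1G60010), 7 (AT1G64405) and 9 (AT5G57340) by size of change. These ranks rest on the response that chose the loci and are only a description.

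**Figure D1:**
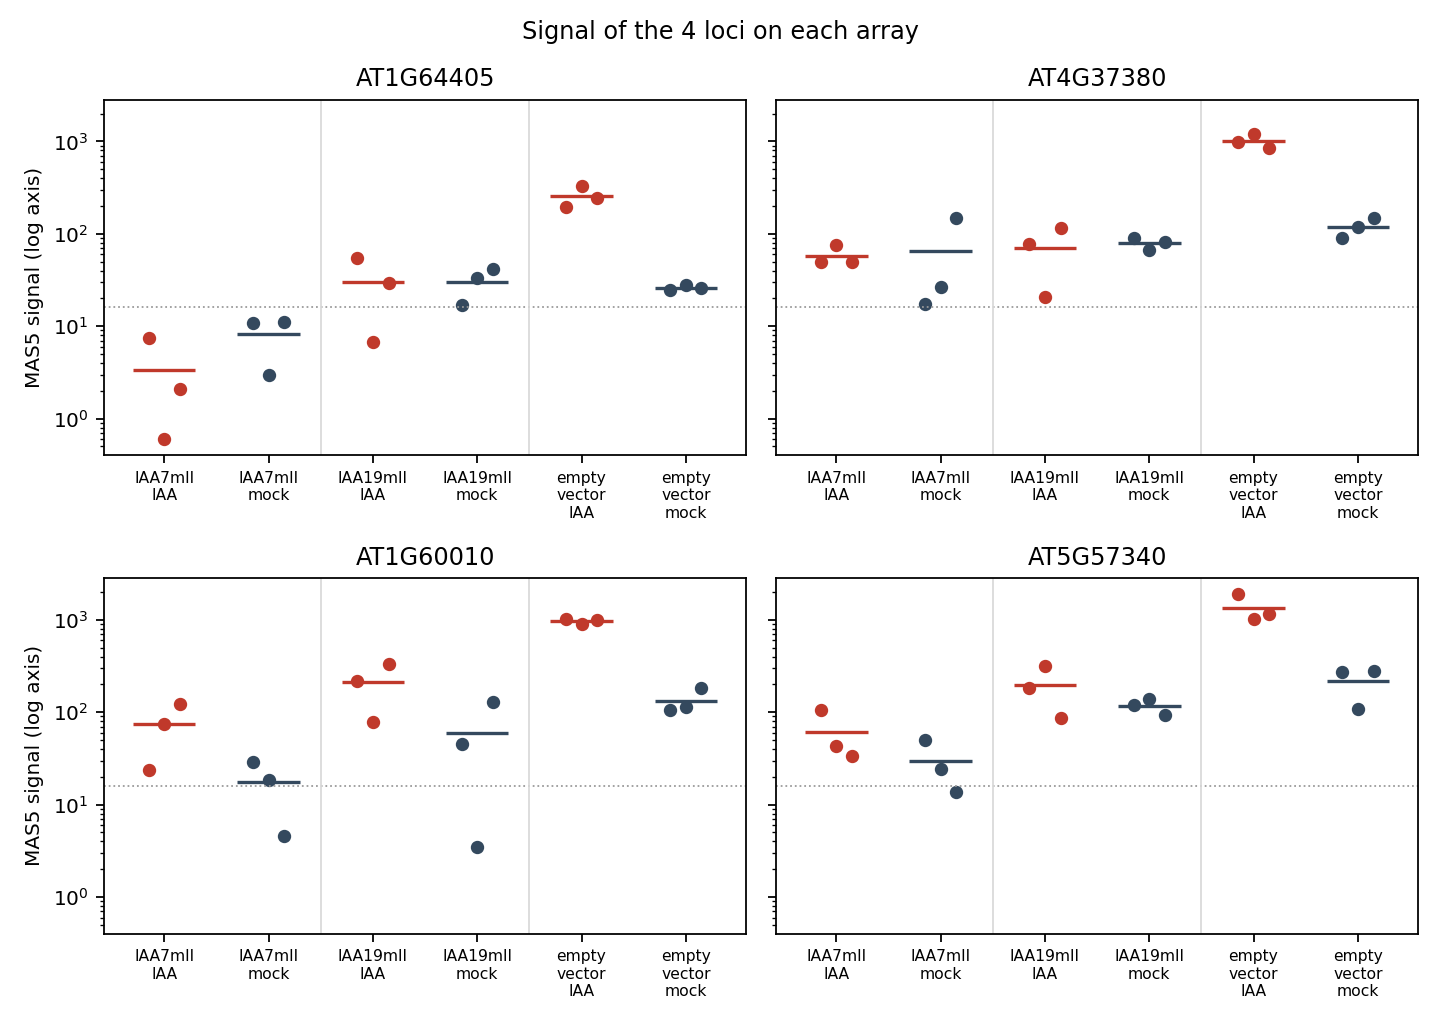
MAS5 signal (log axis) of AT1G64405, AT4G37380, AT1G60010 and AT5G57340 on each of the 18 arrays, with IAA in red left of mock in grey for each vector; horizontal bars are group means and the dotted line marks a signal of 16, the amount added before taking log2. The empty vector arrays with IAA stand above all other arrays for every locus, and AT1G64405 lies below 16 on 7 over-expressor arrays.

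In cells with either over-expressor the signals of all 4 loci stayed below their lowest empty vector signal with IAA. In IAA7mII cells AT1G64405 had signals of 7.5, 0.6 and 2.1 with IAA, against 10.8, 3.0 and 11.1 with mock. In IAA19mII cells it had 54.6, 6.7 and 29.6 with IAA, against 16.9, 32.9 and 41.4 with mock. Only 3 of the 12 over-expressor arrays lay above their array's 40th percentile for this locus, and 7 lay below a signal of 16, where the added 16 compresses any difference. AT4G37380 had 49.4, 76.2 and 49.0 in IAA7mII cells with IAA, against 17.6, 26.6 and 149.6 with mock. In IAA19mII cells it had 77.0, 20.8 and 114.6 with IAA, against 91.2, 66.2 and 81.9 with mock. The widest spread of this locus was among the IAA7mII mock arrays, where replicate 3 stood apart, and the range with IAA lay inside that with mock in IAA7mII cells and spanned it in IAA19mII cells.

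AT1G60010 had 23.9, 74.2 and 124.3 in IAA7mII cells with IAA, against 29.0, 18.7 and 4.6 with mock. In IAA19mII cells it had 218.3, 78.0 and 334 with IAA, against 45.9, 3.5 and 128 with mock. With both vectors the mean was higher with IAA, while 1 IAA array lay below the highest mock array. AT5G57340 had 106.5, 43.5 and 33.8 in IAA7mII cells with IAA, against 50.0, 24.5 and 13.8 with mock. In IAA19mII cells it had 182, 315.8 and 86.8 with IAA, against 119.1, 140.8 and 93.2 with mock. Here too the IAA and mock ranges overlapped with both vectors, and the IAA19mII arrays lay above most IAA7mII arrays.

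The order of the group means had the same top for each locus and differed below it, with an IAA7mII group lowest for all 4 loci. AT1G64405 averaged 255.7 ± 68.3 in empty vector cells with IAA (SD, n = 3, as for the means that follow), 30.4 ± 12.4 in IAA19mII cells with mock, 30.3 ± 24.0 in IAA19mII cells with IAA, 26.3 ± 1.62 in empty vector cells with mock, 8.3 ± 4.59 in IAA7mII cells with mock and 3.4 ± 3.63 in IAA7mII cells with IAA. Its ranges separated below the top group and again between empty vector mock and IAA7mII mock, and overlapped at the other steps. AT4G37380 averaged 1015 ± 184.5 in empty vector cells with IAA, 119.6 ± 29.9 in empty vector cells with mock, 79.8 ± 12.6 in IAA19mII cells with mock, 70.8 ± 47.2 in IAA19mII cells with IAA, 64.6 ± 73.8 in IAA7mII cells with mock and 58.2 ± 15.6 in IAA7mII cells with IAA. AT1G60010 averaged 969 ± 67.3 in empty vector cells with IAA, 210.1 ± 128.2 in IAA19mII cells with IAA, 133.4 ± 42.5 in empty vector cells with mock, 74.1 ± 50.2 in IAA7mII cells with IAA, 59.1 ± 63.3 in IAA19mII cells with mock and 17.4 ± 12.2 in IAA7mII cells with mock. AT5G57340 averaged 1354 ± 470.1 in empty vector cells with IAA, 219.8 ± 97.3 in empty vector cells with mock, 194.9 ± 115 in IAA19mII cells with IAA, 117.7 ± 23.8 in IAA19mII cells with mock, 61.3 ± 39.5 in IAA7mII cells with IAA and 29.4 ± 18.6 in IAA7mII cells with mock. For these last 3 loci only the first step separated the ranges, and all other neighbours in the order overlapped.

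The first question for the over-expressor arrays was whether IAA still changed the loci when an Aux/IAA protein was over-expressed. In IAA7mII cells 0 of the 4 loci passed the limma test at an adjusted p under 0.05, and 1 locus had an unadjusted p under 0.05. The background in this comparison was 0.0888% of probesets called (15 of 16892), with 1306 at an unadjusted p under 0.05. AT1G60010 had the largest value, 2.50-fold with IAA over mock (log2 1.32 ± 0.55 SE, 95% interval 0.19 to 2.46, limma adjusted p = 0.589). AT5G57340 was at 1.66-fold (log2 0.73 ± 0.43, interval -0.16 to 1.62, limma adjusted p = 0.732). AT4G37380 was at 1.18-fold (log2 0.24 ± 0.47, interval -0.72 to 1.20, limma adjusted p = 0.949), a value that becomes -0.20 without IAA7mII mock replicate 1, -0.03 without replicate 2 and 0.95 without replicate 3. AT1G64405 was at 0.80-fold (log2 -0.32 ± 0.40, interval -1.15 to 0.50, limma adjusted p = 0.904). None of the 4 loci had all IAA arrays above all mock arrays, a pattern shown by 4.48% of tested probesets.

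In IAA19mII cells the result was alike in count: 0 of 4 loci passed, with 0.0888% of probesets called (15 of 16892) and 1490 at an unadjusted p under 0.05. AT1G60010 was again the highest at 3.54-fold with IAA over mock (log2 1.82 ± 0.55, interval 0.69 to 2.95). Its unadjusted limma p was 0.00271 and its adjusted p 0.319, and 2 of its 3 IAA arrays lay above all 3 mock arrays. The value rests on single mock arrays: it is 2.09-fold without IAA19mII mock replicate 2 (limma adjusted p = 0.685) and 5.69-fold without replicate 3 (limma adjusted p = 0.0758). AT5G57340 was at 1.43-fold (log2 0.52 ± 0.43, interval -0.37 to 1.40, limma adjusted p = 0.789). AT1G64405 was at log2 -0.11 ± 0.40 (interval -0.94 to 0.71, limma adjusted p = 0.964), a value that turns to 0.33 without IAA19mII IAA replicate 2 and to 0.06 without mock replicate 3. AT4G37380 was at log2 -0.32 ± 0.47 (interval -1.27 to 0.64, limma adjusted p = 0.890), which turns to 0.21 without IAA19mII IAA replicate 2. Again 0 of the 4 loci had IAA arrays wholly above mock arrays, against 6.13% of tested probesets.

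The difference between the responses in IAA19mII and IAA7mII cells was called for 0 of the 4 loci, against 0.0178% of probesets (3 of 16892, with 1071 at an unadjusted p under 0.05). IAA19mII minus IAA7mII was 0.50 ± 0.78 log2 for AT1G60010 (interval -1.10 to 2.10), 0.21 ± 0.57 for AT1G64405 (-0.96 to 1.38), -0.21 ± 0.61 for AT5G57340 (-1.47 to 1.04) and -0.56 ± 0.66 for AT4G37380 (-1.91 to 0.80). All 4 limma adjusted p-values lay between 0.932 and 0.980. All 4 intervals reach more than 1 log2 unit to either side of the estimate, so differences of that size were not resolved with 3 arrays a group. For AT1G64405, AT1G60010 and AT5G57340 leaving out a single array turned the sign, and AT4G37380 is at -1.27 without IAA7mII mock replicate 3.

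**Figure D2:**
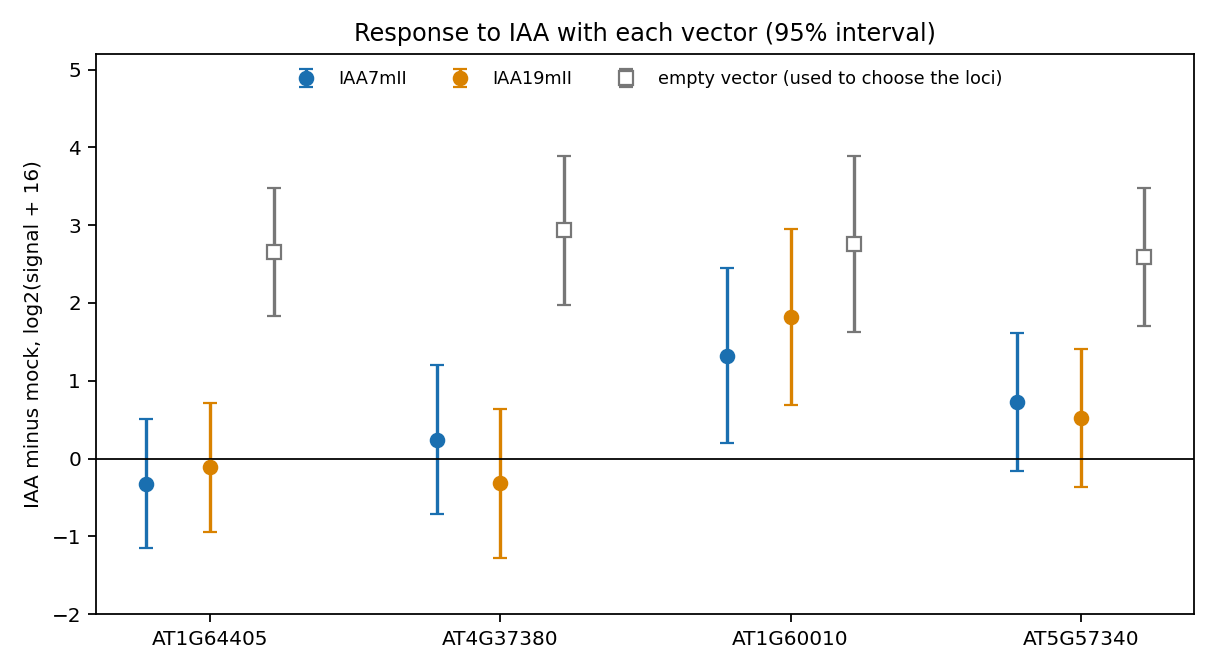
Difference between IAA and mock in log2(signal + 16) for the 4 loci with IAA7mII (blue), IAA19mII (orange) and the empty vector (open grey squares), with 95% intervals from limma; the empty vector values chose the loci. AT1G64405 and AT4G37380 lie around 0 with both over-expressors, and AT1G60010 lies highest of the 4 with both, at 1.32 and 1.82.

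Set beside the empty vector, the 4 loci were lower in both over-expressors when IAA was given. These comparisons share the empty vector arrays that chose the loci and each other's controls, so they are values without a test. In IAA7mII cells with IAA the log2 differences were -4.21 for AT5G57340, -3.80 for AT4G37380, -3.79 for AT1G64405 and -3.63 for AT1G60010. For AT4G37380, AT1G60010 and AT5G57340 this is 12.4 to 18.5 times lower on the signal + 16 scale, and 7.83 to 11.3 times lower with an added 64. AT1G64405 lay below a signal of 16 on all 3 of these IAA7mII arrays, and its size of change is set by the added constant, at 4.68 times lower with an added 64 and 72.1 times lower with an added 1. In IAA19mII cells with IAA the log2 differences were -3.74 for AT4G37380, -2.81 for AT5G57340, -2.67 for AT1G64405 and -2.32 for AT1G60010, which is 4.98 to 13.3 times lower on the signal + 16 scale. Here AT1G64405 is 3.41 times lower with an added 64 and 10.6 times lower with an added 1, and AT4G37380 is 8.3 times lower with an added 64. All 4 loci had every over-expressor array below every empty vector array with IAA, against 21.5% of tested probesets for IAA7mII and 24.0% for IAA19mII. With mock the IAA7mII values were -0.82 for AT1G64405, -1.11 for AT4G37380, -2.20 for AT1G60010 and -2.35 for AT5G57340, and 3 of 4 loci had ranges wholly below the empty vector, all but AT4G37380, against a background of 20.5%. With mock the IAA19mII values were 0.10 for AT1G64405, -0.49 for AT4G37380, -1.38 for AT1G60010 and -0.73 for AT5G57340, and 0 of 4 loci were separated, against 22.9%. AT1G60010 in IAA19mII cells with mock is at -0.63 without IAA19mII mock replicate 2 and at -2.07 without replicate 3, and AT4G37380 in IAA7mII cells with mock is at -1.82 without IAA7mII mock replicate 3. Expressed as the response with IAA7mII minus the response with the empty vector, the values were -2.98 ± 0.57 for AT1G64405, -2.69 ± 0.66 for AT4G37380, -1.86 ± 0.61 for AT5G57340 and -1.43 ± 0.78 for AT1G60010. For IAA19mII they were -2.77, -3.25, -2.08 and -0.93 in that order of loci, with the same standard errors. The 95% intervals of AT1G60010 were -3.03 to 0.17 for IAA7mII and -2.53 to 0.67 for IAA19mII. Its IAA19mII value rests on single arrays, at -1.69 without IAA19mII mock replicate 2 and -0.25 without replicate 3, and it is -0.31 with an added 1.

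The comparison of the over-expressors with each other asked whether the 2 Aux/IAA proteins, in the same backbone, left the loci at different levels. With mock, 1 of 4 loci passed the test, against 4.37% of probesets (738 of 16892). AT5G57340 rose 3.07-fold in IAA19mII cells over IAA7mII cells (log2 1.62 ± 0.43, 95% interval of the fold 1.66 to 5.69, limma adjusted p = 0.0262). Its IAA19mII arrays, at 93.2 to 140.8, all lay above its IAA7mII arrays, at 13.8 to 50.0. AT1G64405 had the same lack of overlap, with 16.9 to 41.4 in IAA19mII cells against 3.0 to 11.1 in IAA7mII cells, and did not pass (1.88-fold, log2 0.91, limma adjusted p = 0.269). Its log2 difference is 1.83 with an added 1 and 0.38 with an added 64, and it is called with neither. A range wholly higher in IAA19mII cells was thus found for 2 of 4 loci, against 9.57% of tested probesets. AT1G60010 was at 1.76-fold (limma adjusted p = 0.553) and AT4G37380 at 1.54-fold (limma adjusted p = 0.603). AT1G60010 becomes 2.97-fold without IAA19mII mock replicate 2 and 1.09-fold without replicate 3, and AT4G37380 becomes 2.52-fold without IAA7mII mock replicate 3, none of them called. The call of AT5G57340 is lost without IAA7mII mock replicate 2 (limma adjusted p = 0.0849) or 3 (0.159), and without IAA19mII mock replicate 1 (0.0778) or 2 (0.109), while the log2 difference stays between 1.36 and 1.93 when any 1 array is left out. It is also lost with an added 64 in place of 16 and with a fit that has no intensity trend, and it is kept in 22 of the 28 alternative settings.

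With IAA, 1 of 4 loci passed, against 6.64% of probesets (1122 of 16892), and it was the same locus. AT5G57340 was 2.65-fold higher in IAA19mII cells (log2 1.41 ± 0.43, 95% interval of the fold 1.43 to 4.90, limma adjusted p = 0.0485). Its IAA19mII arrays, at 86.8 to 315.8, overlapped its IAA7mII arrays, at 33.8 to 106.5. This call stands at the threshold: it is lost in 21 of the 28 alternative settings, among them leaving out any single array except empty vector mock replicate 2, IAA7mII mock replicate 1 or 3, IAA7mII IAA replicate 1 and IAA19mII IAA replicate 3. Leaving out 1 of 5 empty vector arrays, which enter only through the shared spread, gives limma adjusted p-values of 0.0522 to 0.0626, and a fit of only the groups compared gives 0.195. Without IAA19mII IAA replicate 2 it has a log2 difference of 1.00 and the highest limma adjusted p, 0.226. AT1G60010 was at 2.48-fold (limma adjusted p = 0.169), AT1G64405 at 2.18-fold (limma adjusted p = 0.098) and AT4G37380 at 1.05-fold (limma adjusted p = 0.959). AT1G64405 is called in 2 alternative settings, at 2.76 log2 with an added 1 in place of 16 and at 1.56 log2 without IAA19mII IAA replicate 2, and AT5G57340 is lost in both. No locus had ranges wholly higher in IAA19mII cells with IAA, against 9.43% of tested probesets. The median over the 4 loci was 0.86 log2 with mock and 1.22 with IAA, beside -0.06 and -0.01 over all tested probesets. The marker signal of epidermis and lateral root cap was also higher in IAA19mII than in IAA7mII cells without overlap, and so was, with mock, the summed signal of LHW and PHV, the 2 of 16 listed stele markers with a named probeset, at 106.6 to 148.4 in IAA19mII cells and 25.7 to 89.5 in IAA7mII cells. Of these, LHW averaged 94.8 in IAA19mII cells and 24.9 in IAA7mII cells with mock, while PHV averaged 28.5 and 33.8. LHW was called with mock (limma adjusted p = 0.0366), while TRY and EXPA7 were called with neither treatment and EXPA18 was not tested. The stele sum with IAA overlapped, at 76.7 to 251.3 in IAA19mII and 63.9 to 86.9 in IAA7mII cells. With both treatments the ranges also overlapped for JKD (endodermis and cortex) and AGL42 (quiescent centre and columella), each the only marker of its list with a named probeset. The part of cell composition in the difference of AT5G57340 was not tested.

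**Figure D3:**
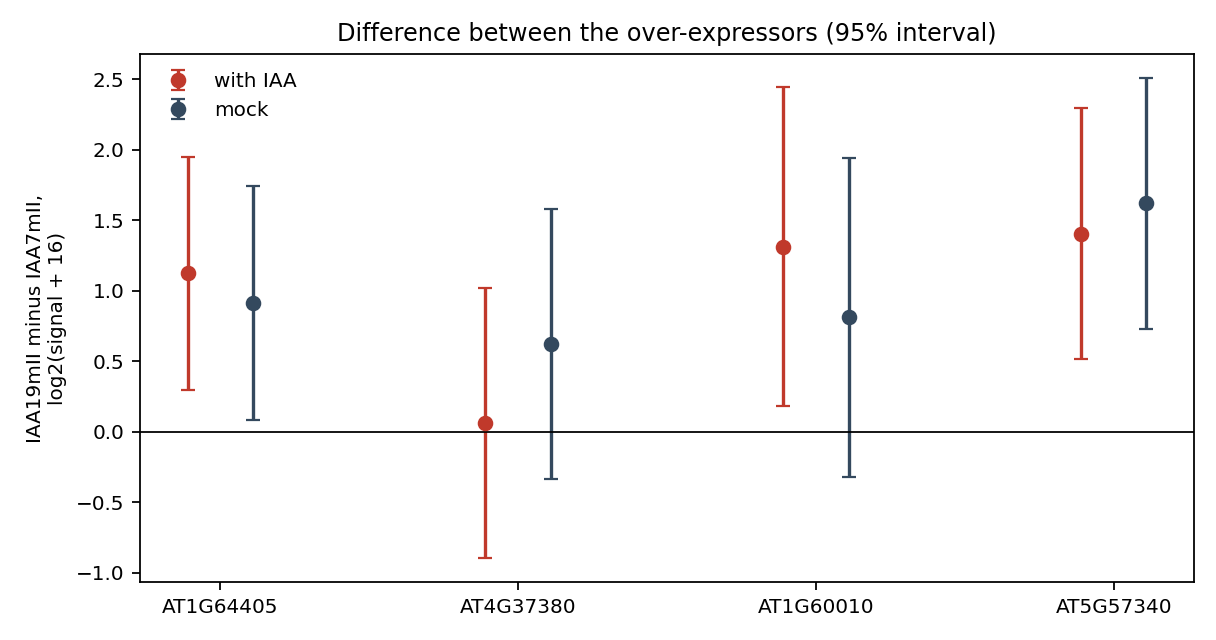
Difference between IAA19mII and IAA7mII cells in log2(signal + 16) for the 4 loci, with IAA (red) and with mock (grey), and 95% intervals from limma. AT5G57340 lies at 1.41 with IAA and 1.62 with mock, and AT4G37380 with IAA lies at 0.06.

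The 4 loci varied together over the 18 arrays, with Pearson r between pairs of 0.753 to 0.898, a likeness that the shared peak in the empty vector IAA arrays sets. Over the 12 over-expressor arrays, which the choice of loci did not use, r between pairs ranged from -0.172 to 0.478. The arrays share their scaling and vectors, and these are descriptions over 12 points. The genes most like each locus over all 18 arrays, out of 9388 compared, were AT5G45310 (r = 0.887) and WAG2 (0.884), a protein kinase gene, for AT1G64405, and AT5G50130 (0.898) and IAA29 (0.867), an Aux/IAA gene, for AT4G37380. For AT1G60010 they were AT4G13180 (0.919) and CLE44 (0.906), which encodes a signalling peptide precursor, and for AT5G57340 they were AT1G19230 (0.929) and TRM28 (0.916). IAA29 stood among the 5 most alike genes of 3 of the loci, all but AT1G60010, whose 5 included LBD16 (0.874), a transcription factor gene of lateral root initiation, and GH9C2 (0.901), a glycosyl hydrolase gene. The empty vector arrays that chose the loci enter this list over 18 arrays too. It thus favours genes raised by IAA in those cells and is only a description. Over the 12 over-expressor arrays the most alike genes were AT5G37540 (0.917) for AT1G64405, AT3G11690 (0.854) for AT4G37380, AT4G19880 (0.929) for AT1G60010 and AT1G75170 (0.911) for AT5G57340. The 15 genes listed over 18 arrays and the 12 listed over the over-expressor arrays had 0 in common.

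The loci beside the 4 on their chromosomes were set against them, taking 2 annotated neighbours on each side in the gene order of assembly TAIR10.1. Of these 16 neighbours 6 have a named probeset and 5 were tested, and, by limma, 0 of the 5 were called in any comparison among over-expressor arrays. GH9C2, the second locus before AT1G64405, was the neighbour with the largest response in empty vector cells, a log2 difference of 2.44 ± 0.42 between IAA and mock. Its mean signal there was 236.7 with IAA and 31.2 with mock. Its response was 1.10 ± 0.42 in IAA7mII cells (limma adjusted p = 0.553) and 0.69 ± 0.42 in IAA19mII cells (limma adjusted p = 0.669), where that of AT1G64405 was -0.32 and -0.11. LACS3, a long-chain acyl-CoA synthetase gene which lies between GH9C2 and AT1G64405, has no named probeset and was not analysed here. The pseudogene AT1G64410 on the other side of AT1G64405 had a response of -0.08 ± 0.42 in empty vector cells. AT1G60000, next to AT1G60010, had 0.70 ± 0.45, and AT5G57330 and AT5G57345, on either side of AT5G57340, had 0.33 ± 0.42 and 0.91 ± 0.47. The annotated ends of AT5G57345 and AT5G57340 overlap, and whether their probesets share transcripts was not tested. None of the 4 neighbours of AT4G37380 was analysed here, among them BRU6, a GH3 family gene also known as GH3.2.

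**Figure D4:**
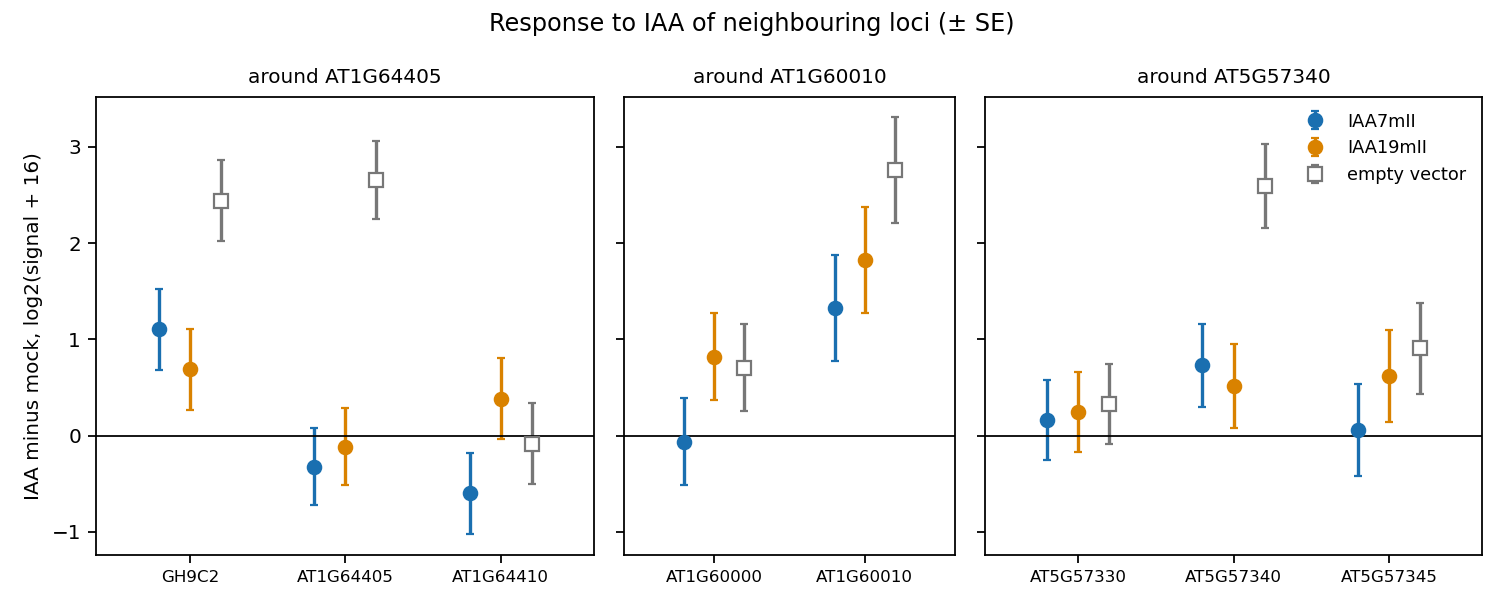
Difference between IAA and mock in log2(signal + 16), with SE, of AT1G64405, AT1G60010 and AT5G57340 and of their tested neighbours in chromosome order, with IAA7mII (blue), IAA19mII (orange) and the empty vector (open grey squares). Of the neighbours, GH9C2 has the highest empty vector value, 2.44, and the other 4 lie between -0.08 and 0.91.

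Known auxin genes give the setting for these values. Of 4 tested GH3 genes, which encode enzymes that conjugate auxin to amino acids, 2 were called higher with IAA in IAA7mII cells and 2 in IAA19mII cells: GH3.3, by 4.27 and 5.14 log2, and WES1, by 1.27 and 0.93 log2. Of 4 tested Aux/IAA genes other than IAA7 and IAA19, 1 was called higher with each over-expressor, IAA30. Of 4 tested auxin-induced transcription factor and kinase genes, 0 were called with IAA7mII and 1, HAT2, was called higher with IAA19mII, by 2.62 log2. Of all tested probesets 0.0888% were called in each response. Called or not, the response in IAA7mII and IAA19mII cells was above 0 for 3 and 4 of the GH3 genes. It was above 0 for 2 and 4 of the Aux/IAA genes, and for 4 and 4 of the transcription factor and kinase genes. The list medians in IAA7mII and IAA19mII cells were 1.12 and 1.02 for GH3, 0.22 and 0.51 for Aux/IAA and 0.70 and 0.49 for the transcription factors and kinases, beside 0.49 and 0.20 for the 4 loci and -0.02 and 0.00 over all tested probesets. Between the over-expressors with mock, WES1 and GH3.17 were called higher in IAA19mII than in IAA7mII cells, by 1.18 and 1.29 log2, as was LBD16, by 1.53 ± 0.41. With IAA, WES1, GH3.17 and IAA18 were called higher, by 0.84, 1.35 and 1.37 log2. Over all tested probesets 4.37% were called with mock and 6.64% with IAA. No gene of these lists was called lower, and none was called in the difference between the responses. The TIR1/AFB, ARF, auxin carrier and SAUR lists had 0 named probesets and were not analysed here. A list of organelle RNA editing factors was added because the plan placed the protein of AT4G37380 in that family, which the annotation used here does not state. Of 6 tested organelle RNA editing factors 0 were called in any of these comparisons, with list medians of 0.09 and 0.04 for the response in IAA7mII and IAA19mII cells.

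Another 52 probesets, with or without a gene name, were called higher by limma with IAA in empty vector cells. Of these, 12 were called higher with IAA in IAA7mII cells, and 11 higher and 1 lower in IAA19mII cells. The 4 loci gave 0 calls in both, where 0.0888% of all tested probesets were called in each. The median responses of the 52 were 0.96 and 0.61 log2. Between the over-expressors with mock, 18 of the 52 were called higher in IAA19mII than in IAA7mII cells. With IAA, 15 were called higher and 1 lower. Beside these stand 1 of the 4 loci in each, and 4.37% of all tested probesets with mock and 6.64% with IAA. Whether the 4 loci differ from the 52 in these shares was not tested.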

How the data were processed

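Gene expression was measured on 18 ATH1 arrays, 3 in each of 6 groups taken from the labels. The deposited table holds the authors' linear intensity values, 1 per probeset and array. The submitters' processing notes name MAS5 for them, with a version not given in the sources used here. Their scaling was kept. The number of arrays limits the precision. Gene names come from the platform's probe table, joined to the reference gene table of assembly TAIR10.1: 13513 probesets carry 1 gene, 13436 of which matched, 503 carry several and 8730 none. Where a gene has several probesets, the one with the highest mean was used.

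Probesets above their array's 40th percentile (a signal of 20.6 to 32.3) on at least 3 arrays were tested. After adding 16 and taking log2, group means were fitted over all 18 arrays by limma 3.58.1 (R 4.3.3) with an intensity trend, and p-values were adjusted by Benjamini-Hochberg within each comparison. Calls need an adjusted p under 0.05. Folds are 2 to the log2 difference, so they understate changes of dim probesets. The fit was also run on simulated data in which each probeset had the same spread in all groups. The arrays differ in spread between groups, so that run does not check the shared spread.

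The loci, gene lists and alternatives were chosen with earlier results of these data known. Besides the 4 loci, the text names the 5 genes most correlated with each over 18 arrays and the 3 over the 12 over-expressor arrays, printing part of them, 2 neighbours on each side, and up to 4 called genes of each list. The alternatives were other added constants, filters, scalings, no intensity trend, array weights, a replicate block, fits of only the groups compared, and leaving out each array. A scan-date block was not run, as the chip sheets used here hold no date.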

Additional observations from a re-analysis of the deposited data

How the results depend on the processing

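The 4 loci were refitted under 28 alternative settings, 18 of which leave out 1 array. In the responses to IAA in IAA7mII and IAA19mII cells and in their difference, 0 loci were called under any of them. For IAA19mII against IAA7mII, the number of loci called was 1 with mock and 1 with IAA. With mock it was 0 with an added 64 and without the intensity trend, and 0 to 1 when an array was left out. With IAA it was 0 with an added 64, no filter, median centring, quantile normalization, no intensity trend, array weights and only the groups compared, and 0 to 1 when an array was left out. With an added 1 the count with IAA stays 1, but the locus called is AT1G64405 (limma adjusted p = 0.0353) and AT5G57340 is lost (0.0612). The cause was not tested.

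The signs that turned belong to log2 values from -0.32 to 0.50, each smaller in size than its SE. The response of AT4G37380 in IAA7mII cells ranged from -0.20 to 0.95 when an array was left out. In IAA19mII cells AT1G64405 was at 0.026 with array weights and ranged from -0.49 to 0.33 when an array was left out, and AT4G37380 from -0.70 to 0.21. The difference between the responses of AT5G57340 was 0.022 with an added 64, and when an array was left out it ranged from -0.62 to 0.23, that of AT1G64405 from -0.17 to 0.65 and that of AT1G60010 from -0.26 to 1.18. IAA19mII against IAA7mII with IAA gave -0.022 for AT4G37380 with median centring and -0.32 to 0.59 when an array was left out. IAA19mII against the empty vector with mock gave -0.075 to 0.33 for AT1G64405 when an array was left out.

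With the replicate block 1 locus was called between the over-expressors with mock and 1 with IAA, and the block changed no other call of a locus. Same-numbered arrays deviated from their group means with correlations of -0.059 to 0.162 (median 0.009), and arrays of different numbers with -0.151 to 0.119 (median -0.007). Not every pair passed 0.1, so the arrays were treated as sharing only a number, although 15 of 18 correlated best with their own number, a hint from the data and not from the design. Of the counts over all probesets, the response to IAA in IAA7mII cells gave 8 calls with only the groups compared and 35 without IAA7mII IAA replicate 1, in place of 15. In IAA19mII cells it gave 24 with the replicate block, 8 without the intensity trend, 8 without mock replicate 1 or IAA replicate 2 and 7 without mock replicate 2, in place of 15. The difference gave 7 without the trend and 5 without IAA19mII IAA replicate 1, in place of 3. The comparison with IAA gave 539 with array weights and 480 with only the groups compared, in place of 1122. The response of AT1G64405 in empty vector cells, 2.66, was 1.80 with an added 64. With an added 64 and 1, AT1G64405 in IAA7mII against empty vector cells was at -2.23 and -6.17 with IAA and at -0.32 and -1.71 with mock, and its response with IAA7mII minus that with the empty vector was -1.90 and -4.46. AT1G60010 in IAA7mII against empty vector cells with mock was at -1.27 and -3.13, and its responses in IAA7mII and IAA19mII cells were 0.71 and 2.05, and 1.16 and 2.58.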
